A study of Sus scrofa with 16 samples.

Results

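Immediate early genes were examined in subcutaneous fat of young pigs through the array probes named for FOS, JUN, JUNB, EGR1, ATF3, NR4A1 or NR4A2. A probe was a member where its gene name equalled one of these 7 symbols and where at least 8 of 16 arrays called its spot well above background. The rule found 2 genes of 5339 named on the array, through 4 FOS probes and 1 NR4A2 probe of 43603 non-control probes, and all 5 were well above background on all 16 arrays. The other 5 symbols were not analysed here under those exact names. JUN and EGR1 were followed through 4 probes that the array design names C-JUN or EGR-1, or describes as early growth response protein 1. These 4 probes lie outside the rule and were taken by name, not by value. A probe described as activating transcription factor 3 was well above background on 3 arrays and was left out.

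The samples were subcutaneous adipose tissue (SCAT) of Sus scrofa at 20 kg body weight from lines selected on residual feed intake (RFI), the feed an animal eats beyond what its growth and maintenance predict. There were 8 pigs of the low-RFI line (strain RFIneg) and 8 of the high-RFI line (strain RFIpl), each on its own one-colour array, and all pigs were fed ad libitum. No treatment, genotype or age beyond this was given, so the lines are the only labelled contrast. Each line's pigs carry the replicate numbers 1 to 8. Replicates 1-4 and 5-8 were also treated as separate replicate sets, although nothing in the labels says what the numbers stand for or how the pigs were handled and sampled.

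Immediate early genes are transcribed within minutes of a stimulus, without new protein synthesis, from promoters already bound by factors such as SRF and CREB. FOS and JUN proteins pair to form the transcription factor AP-1, EGR1 is a zinc finger factor, and NR4A2 is an orphan nuclear receptor whose activity follows its amount. In fat they respond to adrenergic signals, serum factors and tissue handling, and their transcripts are short-lived.

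The probe sequences are shown because the FOS result rests on agreement between separate probes and because the JUN and EGR1 probes carry other names. They are printed from the scanner files in lower case, 5′ to 3′, with no genome position, since the build was not given in the sources used here. Of the FOS probes, A_72_P441284 starts at base 769 of its transcript and the others start at bases 1729, 1859 and 1880. In the NR4A2 probe the capitals mark TAA, the first stop in the longest open frame, after 40 bases and with 17 bases following.
FOS A_72_P441284: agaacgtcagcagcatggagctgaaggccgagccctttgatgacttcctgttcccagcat
NR4A2 A_72_P408573: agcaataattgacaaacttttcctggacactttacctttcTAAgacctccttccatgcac
JUN A_72_P178031: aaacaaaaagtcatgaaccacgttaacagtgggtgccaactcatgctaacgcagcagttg
EGR1 A_72_P305874: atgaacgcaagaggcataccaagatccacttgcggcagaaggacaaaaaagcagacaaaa

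The FOS probes A_72_P596714 and A_72_P205307 overlap near the transcript's end, over 39 and 40 bases respectively. The stretches below lie inside that overlap, and the capital marks the 1 base that only the second of them carries. These probes are therefore near-copies of each other and do not give independent readings.
FOS A_72_P596714, part: gtgaggtggtctgaagttctgacattaac
FOS A_72_P205307, part: gtgaggtggtctgaaTgttctgacattaac

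All values below are log2 processed signals minus the 75th percentile of the same array, so 0 is the brightness of a probe at that percentile. Levels of different probes are not compared with each other. Between 68.7% and 80.3% of spots per array were well above background, arrays correlated with each other at r = 0.944 to 0.989, and no spot was saturated. All 11 of 11 adipocyte markers were well above background on all 16 arrays, and the 4 blood markers were not analysed here. A few arrays stood apart in marker level. The mean deviation of 12 skeletal muscle markers reached 7.89 in low-RFI replicate 8, against -0.97 to 1.32 in the other low-RFI pigs, and that of 5 skin epithelium markers reached 3.74 in high-RFI replicate 6 and 2.49 in high-RFI replicate 2, against -1.25 to 0.91 in the other pigs. In bulk tissue, more cells of a type and more RNA per cell cannot be told apart.

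FOS, the AP-1 subunit, was among the most variable transcripts in this fat, and a few low-RFI pigs carried most of that spread. Its brightest probe, A_72_P596714, ranged from -0.76 to 4.55 over the 16 pigs, a 39.7-fold range of signal. The lowest, median and highest values were -0.75, 1.28 and 4.55 in the low-RFI pigs and -0.76, -0.17 and 1.11 in the high-RFI pigs. The highest value belonged to low-RFI replicate 4, whose processed signal was 13023 against a median of 706 over all arrays. The next were low-RFI replicates 2, 1 and 6 at 2.58, 1.60 and 1.60. These 4 low-RFI pigs lay above every high-RFI pig, and the other 4 lay within the range of the high-RFI line. The SD over the 16 arrays was 1.43, which was 4.68 times the median SD of all probes and larger than that of 98.5% of them.

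**Figure D1:**
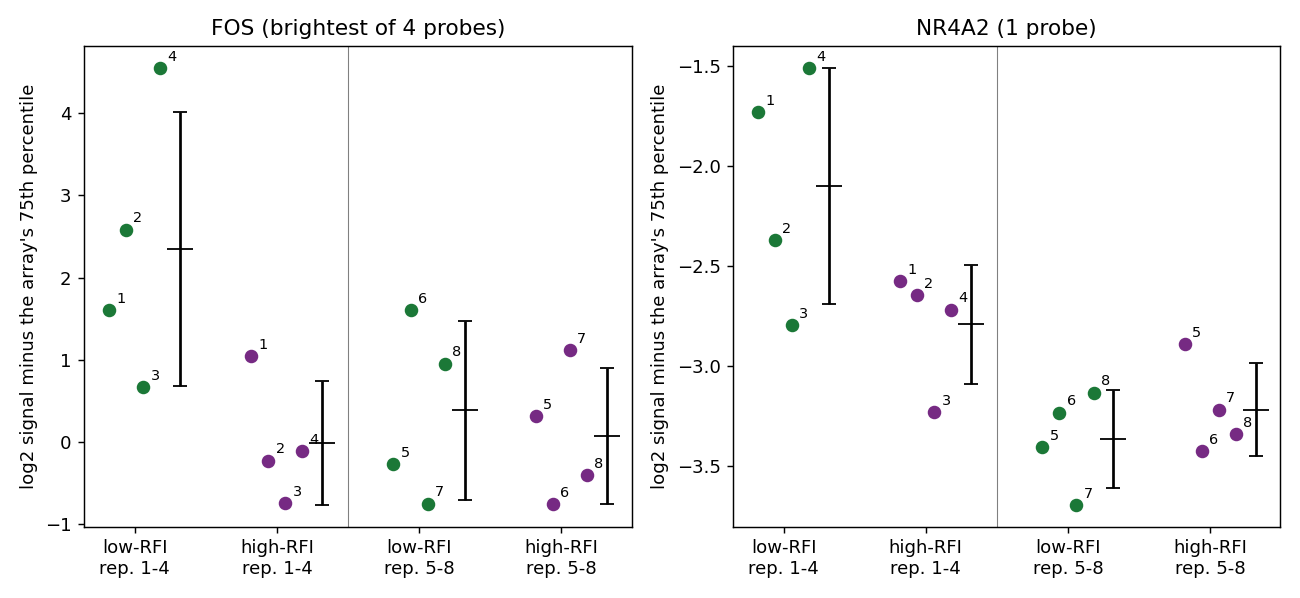
Log2 signal minus the array's 75th percentile (vertical axes) for the brightest FOS probe and the NR4A2 probe, 1 point per pig labelled with its replicate number, by line and replicate set on the horizontal axes. The bars give mean ± SD of 4 pigs: FOS in low-RFI replicates 1-4 stood at 2.35 ± 1.67, and NR4A2 in low-RFI replicates 5-8 stood at -3.36 ± 0.25.

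The other FOS probes gave nearly the same order of pigs, with Spearman's rho of 0.962 to 0.991 between probes. Over the 16 pigs the 4 FOS probes correlated with each other at r = 0.979 to 0.998, each with a permutation p of 1e-05, the smallest that 100000 permutations can give. Without low-RFI replicates 2 and 4, r with the brightest probe was 0.952 for A_72_P441284, which starts farther from the transcript's end than the others. Their SDs were between 1.35 and 1.44, and all 4 had low-RFI replicate 4 as the highest pig.

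NR4A2, the nuclear receptor, was less variable than any FOS probe. Its lowest, median and highest values were -3.69, -2.96 and -1.51 in the low-RFI pigs and -3.42, -3.05 and -2.57 in the high-RFI pigs. Low-RFI replicate 4 was again the highest, followed by low-RFI replicate 1 at -1.73 and low-RFI replicate 2 at -2.37. Its SD over the 16 arrays was 0.61, larger than that of 86.0% of probes. The raw mean signal of its spot had a median of 83.9 against a median local background of 34. Its values thus depend more on the background correction than those of the brightest FOS probe, at 860 against 32.5. The FOS probe A_72_P441284 was also dim, at 77.9 against 35.

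Of the genes followed under other names, the brighter C-JUN probe ranged from 3.91 to 5.73 with an SD of 0.46, and the EGR-1 probe from -4.02 to -2.76 with an SD of 0.30, close to the median SD of 0.305 over all probes. Low-RFI replicate 4 was the highest pig for both. The 2 JUN probes correlated at r = 0.917 and the 2 EGR1 probes at r = 0.825. The EGR1 probe A_72_P305874 had the larger SD of 0.73.

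**Figure D2:**
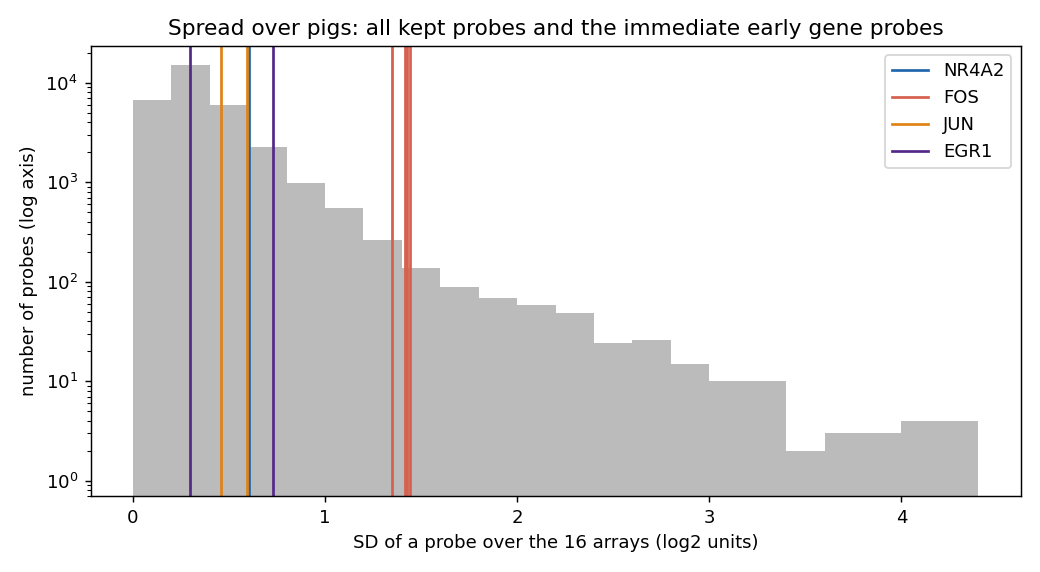
Number of kept probes (vertical log axis) by their SD over the 16 arrays in log2 units (horizontal axis), with vertical lines at the FOS, NR4A2, JUN and EGR1 probes. The FOS lines at 1.35 to 1.44 lie in the upper tail, and the EGR1 probe at 0.30 lies near the median of 0.305.

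FOS and NR4A2 were both highest in low-RFI replicates 1, 2 and 4 but diverged in others, such as low-RFI replicate 6 (1.60 and -3.23). Their correlation over the 16 pigs was r = 0.772 (permutation p = 0.00086, 0.00258 after Benjamini-Hochberg adjustment over the 6 pairs of FOS, NR4A2, JUN and EGR1) and Spearman's rho was 0.753 (adjusted permutation p = 0.00672). Without the pigs farthest from the FOS median, low-RFI replicates 2 and 4, r was 0.552. Leaving out each pig in turn gave 0.613 to 0.821, the lowest without low-RFI replicate 4. With line and set means subtracted, r was 0.718. With each other FOS probe in turn it was 0.752 to 0.777.

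The relation passed the test in replicates 1-4 and not in replicates 5-8. Within replicates 1-4 r was 0.854 (exact permutation p = 0.0069, adjusted 0.0223), and within replicates 5-8 it was 0.605 (exact permutation p = 0.112, adjusted 0.337). The difference between these correlations was not tested. Under normexp background correction, which adds 50 to each corrected signal, r over the 16 pigs was 0.353 (adjusted permutation p = 0.359).

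**Figure D3:**
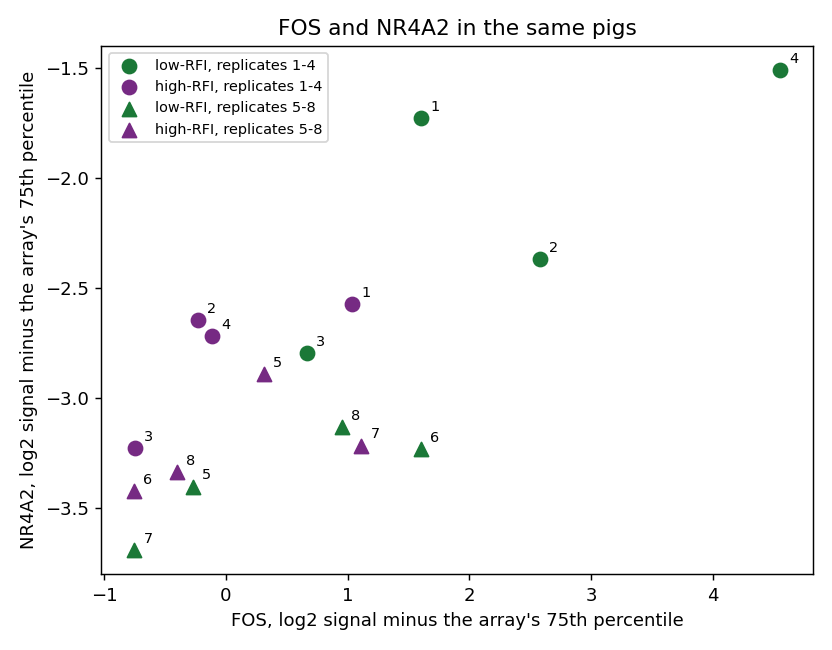
NR4A2 (vertical axis) against FOS (horizontal axis), both as log2 signal minus the array's 75th percentile, 1 point per pig labelled with its replicate number, coloured by line and shaped by replicate set. Low-RFI replicate 4 is at the upper right (4.55 and -1.51), and r over the 16 pigs was 0.772.

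JUN followed NR4A2 more closely than it followed FOS in point estimate, a difference that was not tested, and EGR1 followed FOS. NR4A2 and JUN correlated at r = 0.799 (adjusted permutation p = 0.0021), at 0.810 within replicates 1-4 and at 0.928 within replicates 5-8 (exact permutation tests, adjusted p = 0.0394 and 0.0369). Spearman's rho of this pair was 0.641 over the 16 pigs (adjusted permutation p = 0.0276). Within each set it was 0.643 and did not pass (unadjusted exact permutation p = 0.0962). Without low-RFI replicates 1 and 4, r of this pair was 0.546. FOS and JUN correlated at r = 0.619 (adjusted permutation p = 0.0179), and FOS and EGR1 at 0.693 (0.0114). Both of these rested in part on low-RFI replicate 4, without which r was 0.389 and 0.371 (adjusted permutation p = 0.256 for both). Their Spearman's rho, 0.477 and 0.441, did not pass (adjusted permutation p = 0.129 and 0.136). For FOS and EGR1, r was 0.869 within replicates 1-4 and 0.191 within replicates 5-8. Neither NR4A2 and EGR1 (r = 0.352) nor JUN and EGR1 (r = 0.227) passed, and both were negative without low-RFI replicate 4 (-0.13 and -0.27). With the other EGR1 probe, A_72_P305874, r with NR4A2 was 0.528 (adjusted permutation p = 0.0425).

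These relations depended on the background correction. Under normexp, r was 0.224 for NR4A2 and JUN and 0.723 for FOS and JUN, which turned their order, 0.014 for FOS and EGR1, and 0.844 for NR4A2 and EGR1 (adjusted permutation p = 0.562, 0.00489, 0.958 and 0.00048).

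**Figure D4:**
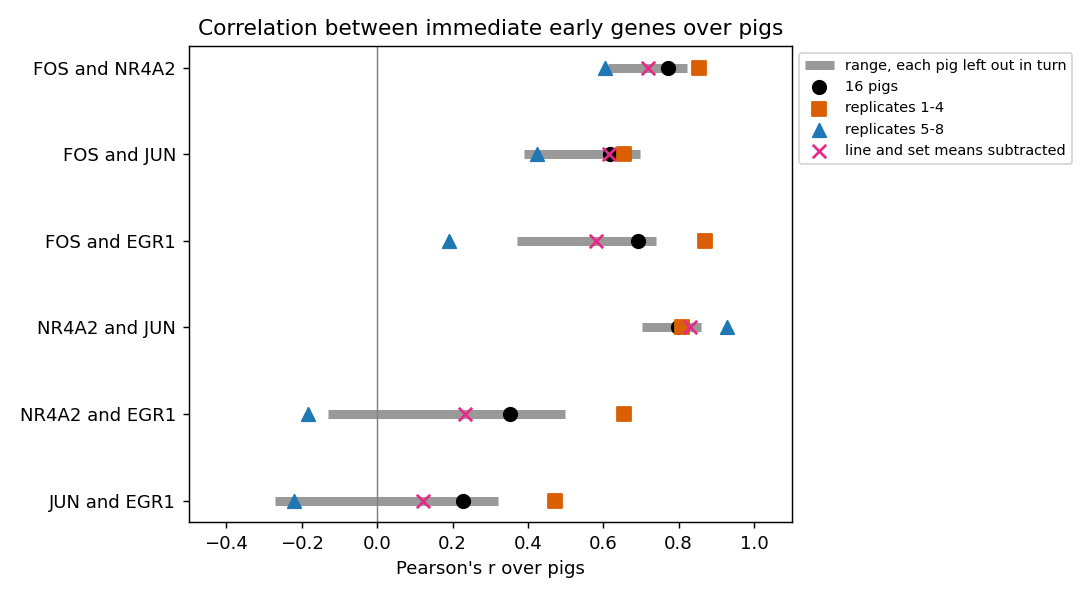
Pearson's r over pigs (horizontal axis) for each pair of genes (vertical axis), for all 16 pigs, within each set and with line and set means subtracted, with grey bars for the range when each pig is left out in turn. NR4A2 and JUN stays between 0.704 and 0.859, while NR4A2 and EGR1 spans 0.

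Among 4523 named genes with complete values, which did not include NR4A2, none had a correlation with FOS as high as the 0.772 of NR4A2. None passed an adjusted permutation p of 0.05 in that family, while 123 positive and 124 negative correlations had an unadjusted p under 0.05 (2.72% and 2.74%). The 5 highest were EIF4EBP2 (0.754), which encodes a repressor of cap-dependent translation, PTGS2 (0.747), the inducible prostaglandin synthase, DST (0.730), a cytoskeletal linker, TBK1 (0.701), a kinase of innate immune signalling, and EGR-1 (0.693). Without low-RFI replicates 2 and 4 they were 0.440, 0.514, 0.546, 0.049 and 0.225, so TBK1 rested on those pigs.

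With the mean of FOS and NR4A2, the highest were DST (0.762), PTGS2 (0.761), SLC2A3 (0.756), a glucose transporter, CST3 (0.711), the cysteine protease inhibitor cystatin C, and UBB (0.700), a polyubiquitin gene. This mean was taken without scaling, so FOS, with an SD of 1.43 against 0.61, weighed more. Without low-RFI replicates 2 and 4 these correlations were 0.610, 0.540, 0.705, 0.464 and 0.621, and they were not tested. With NR4A2 alone, a list added after the values were seen, 3 positive and 2 negative correlations passed (0.0663% and 0.0442% of genes). The positive ones were C1QTNF7 (0.839), a secreted C1q-related protein, DCDC2 (0.836), a doublecortin-domain protein, and MYOC (0.821), myocilin, each with an adjusted permutation p of 0.0339. Their Spearman's rho, 0.788, 0.835 and 0.850, did not pass (adjusted permutation p = 0.0717, 0.0532 and 0.0532). In all, 9 genes (0.199%) had a correlation with NR4A2 of at least 0.772.

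In the line comparison, FOS was higher in the low-RFI pigs by point estimate but did not pass the test, and neither did NR4A2. The low-RFI minus high-RFI difference of the brightest FOS probe was 1.34 (SE 0.60, 95% confidence interval 0.08 to 2.60), with means of 1.37 ± 1.67 and 0.03 ± 0.73 (SD, n = 8 each). For NR4A2 it was 0.27 (SE 0.29, interval -0.33 to 0.88), with means of -2.73 ± 0.79 and -3.00 ± 0.34. limma's adjusted p was 0.9999 for all 5 member probes, and 0 of 32097 probes passed (0%). Without adjustment 1181 probes had a p under 0.05 (3.68%), among them 2 of the 5 member probes, both for FOS.

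The FOS difference was positive on each of the 4 slides, from 0.62 to 3.33, the largest on the slide that held low-RFI replicate 4. Without that pig it was 0.88. NR4A2 was positive on 2 of 4 slides, and its difference without that pig was 0.10. Without low-RFI replicate 8, the array with the high muscle markers, the differences were 1.40 and 0.33, and they were 1.23 and 0.21 without high-RFI replicate 6 and 1.30 and 0.32 without high-RFI replicate 2.

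Within replicates 1-4 the FOS values were 1.60, 2.58, 0.66 and 4.55 in low-RFI pigs 1 to 4. In high-RFI pigs 1 to 4 they were 1.04, -0.23, -0.75 and -0.11. High-RFI replicate 1 lay above low-RFI replicate 3, so the lines overlapped in 1 pig each way. The difference was 2.36 (SE 0.76, interval 0.63 to 4.10, n = 4 per line, limma adjusted p = 0.815) and 1.63 without low-RFI replicate 4.

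NR4A2 in the same pigs was -1.73, -2.37, -2.80 and -1.51 against -2.57, -2.64, -3.23 and -2.72. The low-RFI pigs other than replicate 3 lay above all high-RFI pigs. The difference was 0.69 (SE 0.29, interval 0.03 to 1.35, limma adjusted p = 0.876). All 5 member probes had an unadjusted p under 0.05 here, which 1808 of 32097 probes had (5.63%), while 5 probes, none of them a member, passed the adjusted test (0.0156%). As 4 of these 5 member probes read FOS, the count speaks for 2 genes. Under normexp 2 of the 5 lost a p under 0.05, NR4A2 at 0.14 (unadjusted p = 0.689) and FOS A_72_P441284 at 0.82 (unadjusted p = 0.204).

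Within replicates 5-8 neither gene separated the lines. FOS was -0.27, 1.60, -0.75 and 0.95 in low-RFI pigs 5 to 8 and 0.31, -0.76, 1.11 and -0.40 in high-RFI pigs 5 to 8, a difference of 0.32 (SE 0.59, interval -1.03 to 1.66, limma adjusted p = 0.938). NR4A2 was -3.40, -3.23, -3.69 and -3.13 against -2.89, -3.42, -3.22 and -3.34, a difference of -0.15 (SE 0.17, interval -0.53 to 0.24, limma adjusted p = 0.888). In limma, 0 probes passed (0%) and 1758 had an unadjusted p under 0.05 (5.48%), none of them a member.

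**Figure D5:**
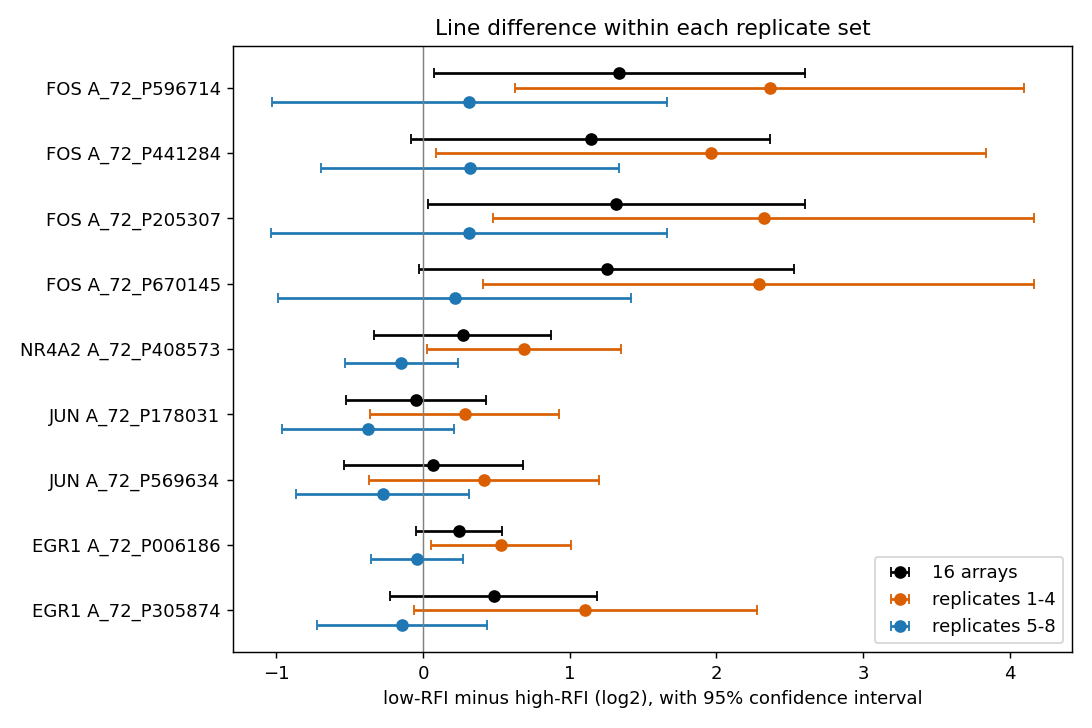
Low-RFI minus high-RFI difference in log2 units with its 95% confidence interval (horizontal axis) for each probe (vertical axis), over 16 arrays and within each set. The FOS estimates of 1.96 to 2.36 in replicates 1-4 lie to the right of those in replicates 5-8, 0.21 to 0.32, with overlapping intervals.

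The change of the line difference between sets was tested directly. It was -2.05 for FOS (SE 1.04, interval -4.28 to 0.18, limma adjusted p = 0.747) and -0.84 for NR4A2 (SE 0.35, interval -1.59 to -0.08, limma adjusted p = 0.722). In limma, 0 of 32097 probes passed (0%), and 2186 had an unadjusted p under 0.05 (6.81%), among them NR4A2. For FOS the estimate without low-RFI replicate 4 was -1.31. JUN and EGR1 had the signs of NR4A2, positive in replicates 1-4 and negative in replicates 5-8, while FOS was positive in both. Their differences were 0.28 and 0.53 in replicates 1-4 for the brighter C-JUN probe and the EGR-1 probe, and -0.38 and -0.04 in replicates 5-8, and none passed.

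Across both lines NR4A2 fell from replicates 1-4 to 5-8. Its mean was -2.45 ± 0.57 in replicates 1-4 and -3.29 ± 0.24 in replicates 5-8 (SD, n = 8 each), a difference of -0.84 (SE 0.20, interval -1.27 to -0.42, limma adjusted p = 0.0298). Of all probes 1662 passed (5.18%), 1022 of them lower (3.18%), so a call in this comparison was not rare. The difference was negative on all 4 slides, from -1.08 to -0.47. By line, the NR4A2 mean went from -2.10 to -3.36 in the low-RFI pigs and from -2.79 to -3.22 in the high-RFI pigs. The sets did not overlap in the low-RFI pigs, which held for 2.82% of probes in that direction, and they overlapped in the high-RFI pigs. In the same comparison the mean of 4 neutrophil and mast cell markers was lower by 1.02 (-1.34 to 1.21 in replicates 1-4 and -1.01 to 0.68 in replicates 5-8). That of 12 skeletal muscle markers was higher by 1.45 (-0.97 to -0.36 and -0.94 to 7.89). Without low-RFI replicate 8, the pig with the muscle level of 7.89, the NR4A2 difference was -0.85 (limma adjusted p = 0.0393). Over the 16 pigs NR4A2 and the neutrophil and mast cell level correlated at r = 0.327 (adjusted permutation p = 0.803). Within replicates 1-4 r was -0.10 and within replicates 5-8 it was -0.57. The part of these markers in the NR4A2 difference between sets was not tested.

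This call was close to the threshold. It was lost when any of low-RFI replicates 2, 4, 5 and 7 or high-RFI replicates 1, 4 and 8 was left out (adjusted p = 0.0506 to 0.0566, differences -0.87 to -0.72), and under normexp correction (-0.34, adjusted p = 0.941). FOS did not pass, at -0.95 (SE 0.57, interval -2.15 to 0.26, limma adjusted p = 0.331), and was positive on 1 of 4 slides. The brighter C-JUN probe was at -0.38 (limma adjusted p = 0.297), the dimmer one at -0.70 (0.0944) and the EGR-1 probe at 0.02.

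No gene of the wider set of immediate early and AP-1 genes passed the line test. Of 59 listed names 30 were on the array and 28 were kept, and 0 passed in limma with either sign, while 1 in each direction had an unadjusted p under 0.05. The median line difference of the 28 was -0.02, beside -0.02 over all 4635 named genes. CYR61, a secreted matrix protein induced by serum, was at 0.75 (SE 0.19, unadjusted p = 0.0010). RHOB, a small GTPase, was at -0.36 (unadjusted p = 0.0133). NR4A3, the relative of NR4A2, was at 0.04.

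Between sets, 1 of the 28 rose and 1 fell in limma, a share near that of all probes (5.18% called, 3.18% lower). MYC, the growth factor-responsive transcription factor, rose by 0.72 in replicates 5-8 (adjusted p = 0.0285), and the cytokine IL6 was at -0.89 (adjusted p = 0.0230). Of the 10 heat shock genes, 2 fell, HSPA1L (-0.62) and DNAJB1 (-0.53), with adjusted p of 0.0257 and 0.0227, beside the 3.18% of all probes that were lower. None of 13 hypoxia, 6 glucocorticoid response or 5 upstream kinase and factor genes passed. In the line comparison over 16 arrays, none of these lists had a member that passed, and 2 of 13 hypoxia genes, ADM (0.57) and P4HA1 (0.41), had an unadjusted p under 0.05, beside 3.68% of all probes.

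The same lists were set against the 2 member genes over the 16 pigs. Of 26 other immediate early and AP-1 genes, 19 had a positive correlation with FOS (median r = 0.20) and 20 with NR4A2 (median 0.23), beside medians of 0.03 and 0.05 over all 4523 genes. Without the 2 most extreme pigs of each gene the medians were 0.11 and 0.11. None passed the adjusted permutation test. PTGS2, BTG1 (0.647) and BTG2 (0.642), the latter both antiproliferative factors, were the highest with FOS. IER3, an early gene itself, was negative with FOS (-0.65) and with NR4A2 (-0.62). MYC and GADD45G were also negative, at -0.62 and -0.61 with NR4A2 and at -0.27 and -0.48 with FOS. Without low-RFI replicates 2 and 4 BTG1 was at 0.07 and IER3 at -0.64. The medians with FOS and NR4A2 were 0.19 and 0.16 for 9 heat shock genes and 0.14 and 0.12 for 6 glucocorticoid response genes. They were -0.05 and -0.17 for 13 hypoxia genes and -0.08 and -0.44 for 5 upstream kinase and factor genes. Without low-RFI replicates 2 and 4 the medians with FOS were -0.23 for heat shock and 0.03 for glucocorticoid response genes. Without low-RFI replicates 1 and 4 those with NR4A2 were 0.004 for glucocorticoid response and -0.04 for upstream genes.

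No relation of either member with a measure of the array or a cell type level passed the test. In 22 relations, of FOS and NR4A2 with the share of spots above background, the array's 75th percentile and the marker levels of 9 cell types, no adjusted permutation p was below 0.73. The largest correlations in size were -0.390 with the skin epithelium level and 0.389 with the endothelial level for FOS, and 0.461 with the endothelial level for NR4A2. Spearman's rho of NR4A2 with the endothelial level was 0.535 (unadjusted permutation p = 0.0352, adjusted 0.731). Without low-RFI replicates 3 and 8, the pigs farthest from the median endothelial level, r with that level was 0.538 for FOS and 0.538 for NR4A2. Low-RFI replicate 4, the pig highest for FOS and NR4A2, had the highest endothelial level of the low-RFI pigs (0.28, against a highest of 0.27 in the high-RFI pigs) and the lowest skeletal muscle level (-0.97, against a lowest of -0.94 in the high-RFI pigs). Handling and time to sampling were not recorded in the sources used here, and their part in the covariation was not tested.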

How the data were processed

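Total RNA (150 ng) of 16 pigs was labelled with Cy3 and hybridised to one-colour Agilent arrays, per the labels' protocols. The deposited scanner files hold Agilent Feature Extraction 10.7.3.1 output, and gProcessedSignal, a background-corrected intensity, was used, per the file headers. The deposited value table equals log2 of it centred on each array's median (r = 1.0). The submitters' processing notes name R 2.10.0.

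Outlier-flagged spots were dropped and spots of a probe averaged after log2 and subtraction of the array's 75th percentile. Probes well above background on at least 8 arrays with at least 6 values per line were kept (32097). Differences were tested with limma 3.58.1 in R 4.3.3 (Benjamini-Hochberg, threshold 0.05, all kept probes), with the script tested on simulated data. The labels count 8 pigs per line with 1 array each. Correlations used 100000 permutations, or exact ones for 8 pigs.

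The members, gene lists and tests were chosen with earlier results of these data known. All members were named. From each list, up to 3 genes per direction past the threshold were named, otherwise the 3 with the smallest p where they help, and the 5 genes most like FOS and most like the members' mean. 1 gene that this rule names is not reported here. BTG1, BTG2, IER3, GADD45G and NR4A3, and the correlations of MYC, were named after their values were seen. The brightest probe stands for a gene.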

Additional observations from a re-analysis of the deposited data

Results flagged for a closer look

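The EGR-1 probe A_72_P006186 had a value of -2.76 in low-RFI replicate 4, and its gap to the next low-RFI pig was 55.1% of the line's range, above the limit of 52.6% for 8 samples. Of 18 series of 8 pigs examined (9 probes in both lines) this was the only one past the limit, and chance alone passes about 1 in 20. FOS in the same pig (4.55) did not pass it.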

How the results depend on the processing

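Over 36 results and 726 alternative values, 675 were rated the same. For differences and correlations this means the same direction and side of the threshold. For counts of probes it means a count equal to the main one or within a fixed ratio of it. With normexp background correction, NR4A2 turned to -0.11 in the line comparison and lost its difference between sets (-0.34), r of FOS and NR4A2 was 0.353, r of JUN and EGR1 -0.20, the FOS probe A_72_P441284 was at -0.25 in replicates 5-8, and 0 probes passed in replicates 1-4; the cause was not tested. With only probes well above background on all 16 arrays, 3 probes passed in replicates 1-4. Within replicates 5-8, with fewer samples, r was 0.605 for FOS and NR4A2, -0.18 for NR4A2 and EGR1 and -0.22 for JUN and EGR1.

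Leaving out each pig in turn, 0 to 1 probes passed for line (1 without low-RFI replicate 4), 3 to 5 in replicates 1-4, and 603 (without high-RFI replicate 4) to 4790 (without low-RFI replicate 3) between sets. NR4A2 between sets was -0.94 to -0.72. The line difference in replicates 5-8 was -0.090 to 0.69 for the brightest FOS probe, -0.087 to 0.68 for A_72_P205307 and -0.15 to 0.58 for A_72_P670145, negative for these without low-RFI replicate 6. The correlation was -0.13 to 0.50 for NR4A2 and EGR1 and -0.27 to 0.32 for JUN and EGR1.

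The labels do not say whether equal replicate numbers pair pigs of the lines, and low correlations cannot settle it. Deviations of same-numbered pigs correlated at -0.29 to 0.32, over 0.1 in 3 of 8 pairs, and 1 pig was closest to its own number. With the replicate block, 2 probes passed in replicates 1-4 instead of 5, and it changed no other call. The slide block for the sets was added after seeing the data and kept the NR4A2 call (adjusted p = 0.0413 in limma). Array weights gave 1.02 for FOS and 0.04 for NR4A2 in the line comparison. The dim spots of NR4A2, EGR1 and FOS A_72_P441284 limit what their values can show.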
